A study of Mus musculus with 8 samples.

Results

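The 6 samples described here are the malignant mesothelioma samples labelled triple knockout, of 8 samples in the series. Malignant mesothelioma is a cancer of the mesothelium, the cell layer that lines the pleura and other body cavities, and the labels abbreviate it MM. The series title names conditional mouse models in which Bap1, Nf2 and Cdkn2a were lost, and the other 2 samples are labelled double knockout, which the sample names give as Nf2 and Cdkn2a. Nf2 and Cdkn2a loss is therefore shared by both genotypes, and the triple knockout adds the loss of Bap1. The labels give no age, sex, strain or Cre driver for any sample, and the number in each sample name is not explained. The growth protocol describes cells kept in RPMI medium with serum and insulin, yet transcripts of muscle, blood, fat and immune cells were counted in these libraries. Nothing in the labels says whether the 6 samples are separate tumours or separate cultures. Each p-value here treats the libraries as independent, which the labels do not establish, and part of their spread may be technical. Samples are numbered 1 to 6 in the order of their records, and the numbers are only names.

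Genes were chosen by level and not by spread: all autosomal genes with a mean of at least 1 CPM (a gene's counts relative to its library's total, scaled between libraries with TMM) over the 6 samples. This kept 14030 of the 52636 genes in each table. The kept genes closest to that threshold were Gm16793, 1700001L05Rik and Fndc7 at 1.00 CPM, and the closest left out were Gm30075, Tmem202 and Susd4 at just under 1 CPM. Total counts ran from 28326756 to 30232440 per triple knockout library, so depth was nearly even. Spread is given as the standard deviation (SD) over the 6 samples of log2 CPM with a prior count of 2, a small constant that steadies the logarithm of low values. An SD of 1 on this scale is a typical distance from the mean of a factor of 2.

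Mesothelioma cells often combine mesenchymal and epithelial features, and tumours of the pleura grow against the muscle of the chest wall and the diaphragm. BAP1 is a deubiquitinase that removes ubiquitin from histone H2A and opposes the Polycomb complexes, NF2 (merlin) restrains YAP through the Hippo pathway, and Cdkn2a encodes inhibitors of the cell cycle and activators of p53. Tumours that share such engineered losses can still differ in later changes, in their differentiation and in the other cells they hold.

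The targeted genes were still counted in all 6 samples, and a count over a whole gene does not show which exons were read, so these values do not check the labels. Bap1 was at 59.1, 63.5, 57.9, 44.9, 73.7 and 64.7 CPM in samples 1 to 6, against 103 and 72.9 CPM in the 2 double knockout samples. Sample 4 was lowest and sample 5, the highest, lay just above the lower double knockout sample. The triple minus double difference was -0.60 on the log2 scale (edgeR quasi-likelihood test, adjusted p = 0.122). Nf2 was at 91.7, 99.2, 90.6, 65.2, 103 and 97.8 CPM, lowest in sample 4. Cdkn2a was at 9.13, 4.29, 6.58, 8.38, 4.66 and 5.19 CPM, with samples 1 and 4 highest.

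The most abundant genes described matrix-producing mesenchymal cells. Col1a2, Col1a1 and Col3a1, which encode the chains of fibrillar collagens I and III, held the first 3 places by mean CPM. Fn1 (fibronectin), Postn (periostin) and Sparc, which encode secreted matrix proteins, and Vim, the mesenchymal intermediate filament, were also among the first 12. The other 5 were Eef1a1 and Eef2 (translation elongation factors), Actb (cytoplasmic actin), Cav1 (the main protein of caveolae) and Gm42418. Gm42418 is known for collecting reads of ribosomal RNA, so its level is uncertain as a gene level. Together the 12 took 5.39% to 8.30% of all counts in a library, and 1106 genes held the upper 50% of counts.

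These abundant genes differed widely in how steady they were. Col3a1 was at 9220.1, 7638, 10265, 7096, 8265 and 10368 CPM in samples 1 to 6. Its partner Col1a1 was at 10018, 9468, 3120.1, 7041, 7313 and 19632 CPM. Sample 6 was highest and sample 3 lowest for Col1a1, whereas sample 3 was among the highest for Col3a1, and the SDs were 0.86 and 0.23. Vim (SD 0.18), Eef1a1 (SD 0.14) and Eef2 (SD 0.12) varied little. Cav1 stood apart from all of them, at 7595, 615, 519, 13835, 1619.8 and 527 CPM (SD 2.09). Gm42418 was at 12407, 10830.5, 2776, 5421, 2292 and 2528 CPM, with samples 1 and 2 above the rest. Per kilobase of exon the order changed: Gm42418 had the highest mean at 3300 CPM per kb and Eef1a1 was at 2043, above Col1a1 at 1437.

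Across all kept genes the median SD was 0.31, with the middle 50% of genes between 0.20 and 0.54. The highest sample exceeded the lowest by a median of 1.76-fold, and 1303 genes (9.29%) had an SD above 1. Nearly all genes spread beyond counting error. A Poisson likelihood ratio test asked whether each gene had 1 common level in the 6 libraries, and 13982 of 14709 genes that passed the filter on low counts differed at an adjusted p under 0.05, which is 95.1%. Of the kept genes 13609 entered that test and 382 of them were not called. Because 27 of the 100 most variable genes passed that filter, all 14030 kept genes were also tested without it, and 13580 were called.

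**Figure D1:**
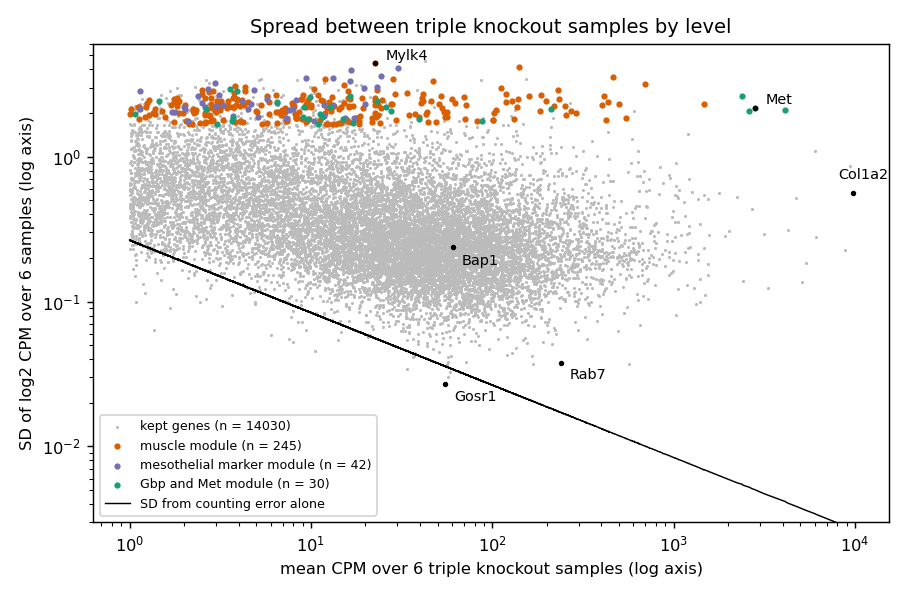
Each point is 1 kept gene, with its mean CPM on the x axis and its SD of log2 CPM over the 6 triple knockout samples on the y axis (both log axes). The line is the SD that counting error alone would give. Most genes lie above the line, Gosr1 lies under it at an SD of 0.027, and the colored muscle, mesothelial and Gbp and Met modules lie at the top over a wide range of levels.

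No pair of libraries was a copy of another. The share of tested genes that differed between 2 samples beyond counting error ran from 58.8% (samples 2 and 3) to 71.5% (samples 4 and 5). Across kept genes the correlation of log2 CPM was highest between samples 1 and 4 (Pearson r = 0.954) and between samples 2 and 6 (0.952), and lowest between samples 2 and 4 (0.878). These are correlations across genes, which are not independent replicates. Samples 2 and 6 were more than 4-fold apart in 312 genes and samples 4 and 5 in 891. The first principal component, the axis along which the samples differ most, carried 41.6% of the variance and ran from sample 4 (-78.4) and sample 1 (-41.2) to sample 2 (53.5). The second carried 21.4% and set sample 3 (70.9) apart from the others, which lay between -24.6 and -3.03. The third carried 15.4% and set sample 5 (55.9) apart.

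The steadiest genes included some of general cell machinery. Among genes with known symbols they were Gosr1 (a Golgi vesicle fusion protein), Armc1, Trmt1 (a tRNA methyltransferase), Sprtn (a DNA-protein crosslink protease), Cdc42 (a small GTPase of cell polarity), Zc3h13 (an RNA methylation factor), Dync1i2 (a dynein chain), Rab7 (a late endosome GTPase), Cdc23 (a subunit of the anaphase-promoting complex) and Mfap3. Gosr1 was at 55.1, 56.1, 55.2, 56.3, 54.6 and 53.5 CPM, and its SD of 0.027 was under the 0.036 that counting error alone gives at its depth. Cdc42 was at 547, 564, 573, 589, 556 and 564 CPM, with an SD of 0.037 against 0.011 from counting. Rab7 was at 244, 232, 239, 231, 247 and 238 CPM. A steadier level than this was not detectable for a gene at the level of Gosr1. Of the 100 steadiest genes 51 were called by the Poisson test. They were chosen for their small variance in the same libraries, so this count is a description of the choice.

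Steady within the triple knockout did not mean equal to the double knockout. Sprtn was at 34.9, 33.3, 33.97, 33.7, 32.8 and 34.8 CPM in samples 1 to 6 and at 84.7 and 49.5 CPM in the double knockout samples. The groups did not overlap, and the difference was -1.04 on the log2 scale (edgeR quasi-likelihood test, Benjamini-Hochberg adjusted p = 0.0216). Trmt1 was at 59.1, 57.9, 58.96, 57.6, 60.9 and 57.4 CPM against 106 and 85.6, a difference of -0.77 (edgeR, adjusted p = 0.0198). Both genes were chosen for small variance within the triple knockout. That variance also enters this test and makes overlap less likely. Both calls rested on the first double knockout sample: without it the differences were -0.57 for Sprtn (edgeR, adjusted p = 0.113) and -0.57 for Trmt1 (edgeR, adjusted p = 0.0869), and without any 1 of the other 7 samples both stayed called. Over all genes tested 8.35% were called in this comparison, 2.94% higher and 5.41% lower. Of the 100 steadiest genes 10 were called, 2 higher and 8 lower, a share near that background. DESeq2 called 25 of them, beside 3380 of all 17709 genes tested. The variance that chose these 100 genes also enters both tests. The background moved with single libraries: edgeR called 1478 genes in all, 315 without the first double knockout sample and 5579 without the second.

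Functional lists differed in spread, beside a median SD of 0.31 over all kept genes. Over genes with a mean of at least 10 CPM the median SD was 0.254. The lists were not matched for level, and the 32 listed Hox genes together summed to 101 to 295 CPM in a sample. Spliceosome and RNA processing genes had a median SD of 0.15 over 16 members, proteasome subunits 0.17 over 24, cytosolic ribosomal proteins 0.22 over 25 and nuclear-encoded respiratory chain genes 0.23 over 21. The list of Polycomb and Bap1 complex genes had a median SD of 0.24 over 35 kept members, from Mbd6 at 0.09 to Asxl3, a Polycomb-related partner of Bap1, at 0.64. Proliferation and E2F genes had a median of 0.27 over 25, with Ccna2 (cyclin A2) at 109, 102, 94.1, 99.9, 97.99 and 103 CPM and Ccne2 (cyclin E2) at 30.7, 19.7, 16.6, 22.1, 7.42 and 19.1 CPM, lowest in sample 5. No member of these 6 lists had an SD above 1. Few members were among the 500 steadiest of the 14030 kept genes. In the order given they were 2 of 16, 1 of 24, 0 of 25, 0 of 21, 1 of 35 and 1 of 25. The Hippo and YAP target list had a median SD of 0.39 over 15, with 2 members above 1, and its median deviation ran from -0.30 in sample 5 to 0.28 in sample 1. Yap1, its steadiest member, was at 144, 120.1, 116, 124, 139 and 126 CPM, and Ankrd1, its most variable, at 79.99, 190.0, 22.3, 60.1, 83.6 and 235 CPM, highest in sample 6 and lowest in sample 3. Higher spread was seen in interferon response genes (median 0.73 over 22), developmental transcription factors (0.89 over 40), Hox cluster genes (1.04 over 19) and epithelial junction and keratin genes (1.08 over 13).

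Many of the genes that varied most are known as markers of skeletal muscle or of mesothelium. The 15 most variable genes with known symbols were Mylk4, Pvalb, Myh4 and Igfn1 of skeletal muscle, Upk3b, Muc16, Upk1b, Lrrn4, Krt19, Pkhd1l1 and Gata4, which include established markers of mesothelium, Tyrp1 and Dct of the melanin pathway, and the retroposed copies Rps3a3 and Tpm3-rs7. Their SDs ran from 3.24 to 4.42. Of the 100 most variable genes 81 were protein coding and 14 were pseudogenes, and sample 2 was highest for 39 and sample 4 lowest for 56. The median highest-to-lowest ratio was 161-fold, from log2 values with the prior count. None of the 93 of them that entered the triple against double comparison was called by edgeR (9 had an unadjusted p under 0.05) or by limma-voom (3 had), and DESeq2 called 9. Over all 17709 genes tested edgeR called 1478, limma-voom 1070 and DESeq2 3380. The spread that chose the most variable genes also enters that test.

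Promoters of the variable and steady genes differed in letters as well. Steady genes tend to have promoters in CpG islands, stretches rich in C followed by G, while tissue-restricted genes more often carry a TATA box, the TATAAA element bound by the TATA-binding protein upstream of the start site. To show that contrast, the 100 bases that end just before the RefSeq start site (GRCm38.p6, 5′ to 3′ on the gene's strand) are printed for 3 variable genes and for 2 steady ones. Capitals mark each CG and any TATAAA in the searched stretch.
Myh4 (chr11:67237712-67237811, plus strand): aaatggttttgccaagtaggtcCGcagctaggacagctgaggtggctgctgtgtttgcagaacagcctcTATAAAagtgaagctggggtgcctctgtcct
Mcpt4 (chr14:56062311-56062410, minus strand): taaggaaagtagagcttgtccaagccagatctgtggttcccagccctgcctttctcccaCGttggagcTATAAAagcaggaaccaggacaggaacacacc
Muc16 (chr9:18674604-18674703, minus strand): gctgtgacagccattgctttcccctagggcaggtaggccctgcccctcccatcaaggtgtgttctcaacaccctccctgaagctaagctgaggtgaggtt
Sprtn (chr8:124897794-124897893, plus strand): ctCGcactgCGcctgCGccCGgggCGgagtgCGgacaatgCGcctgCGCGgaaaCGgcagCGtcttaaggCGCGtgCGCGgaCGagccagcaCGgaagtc
Zc3h13 (chr14:75284273-75284372, plus strand): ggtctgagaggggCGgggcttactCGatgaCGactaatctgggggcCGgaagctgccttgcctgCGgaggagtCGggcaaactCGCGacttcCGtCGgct
The Myh4 element begins 31 bases and the Mcpt4 element 32 bases before the start site, and Muc16 holds neither the element nor a CG. Sprtn holds 17 CG pairs in these 100 bases and Zc3h13 holds 10. The printed genes were picked to show the contrast, and Mcpt4 is not among the 200 most variable genes. Other named genes did not follow it. The steady Dync1i2 holds 3 CG pairs, and the variable Acan and Crhr1 hold 8 each. Vim, which varied little, has a TATAAA that begins 32 bases before the start site.

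TATAAA was searched on the gene's strand from base 200 to base 230 of 300-base windows, a stretch that ends just upstream of the start site. It was present in 11 of 119 matched promoters of the 200 most variable genes (9.24%) and in 1 of 142 of the 200 steadiest (0.704%). Over all 9529 kept genes with a matched window the share was 1.43%, and over all 32817 windows in the table it was 2.21%. With both strands searched the shares were 10.9%, 0.704%, 1.70% and 2.83%. The median ratio of observed to expected CpG was 0.30 for the variable genes, 0.85 for the steady genes and 0.77 for all kept genes. The share was 8.86% in the muscle module described next and 6.50% in the other genes among the 500 most variable. A match is a description of letters only, and the sets were chosen by their measured spread.

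Clustering the 500 most variable genes by how they rose and fell together over the 6 samples gave 11 modules of at least 10 genes, each joined at an average Pearson r of at least 0.7. With 6 points per correlation, and all genes measured in the same 6 libraries, these are descriptions and carry no p. The 8 smaller modules depended on the settings: with complete linkage 1 of them was found again.

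The largest module held 245 genes and was led by genes of adult skeletal muscle: the fast myosins Myh1, Myh2 and Myh4, the calcium pump Atp2a1, titin (Ttn), nebulin (Neb), creatine kinase (Ckm), troponins and sarcomere anchors. The 15 genes of the adult skeletal muscle list all had an SD above 1, and their summed level was 907, 16561, 2248, 155, 5589 and 7401 CPM in samples 1 to 6. Sample 2 was highest, sample 4 lowest, and the others were spread between them. Atp2a1 was at 43.6, 2549, 189.7, 6.001, 471 and 938 CPM. Myh4, the fastest myosin, was at 20.3, 1935, 12.96, 3.28, 374 and 419 CPM. Pvalb (parvalbumin, a calcium buffer of fast fibers) was at 11.1, 479, 3.88, 0.172, 149 and 203 CPM. Nrap, a protein of muscle fiber attachment, was at 20.8, 314, 41.6, 5.69, 97.4 and 147 CPM and Eef1a2, the muscle and neuron form of elongation factor 1, at 8.99, 219, 32, 3.07, 62.5 and 103 CPM.

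Genes of fat and blood cells were highest and lowest in the same samples. The fat cell list (Adipoq, Plin1, Cidec and others) summed to 26.3, 193, 52.98, 5.10, 111 and 94.9 CPM. The red blood cell list, hemoglobins and Alas2, summed to 41.1, 117, 71.0, 4.79, 45.3 and 101 CPM. Sample 2 was highest and sample 4 lowest in the muscle, fat and red blood cell lists. The list of 7 genes expressed in all leukocytes was flat by contrast, at 912 to 1111 CPM, with Laptm5 at 259.6, 252, 239, 272, 299.6 and 265 CPM (SD 0.11). The macrophage receptor Csf1r was at 437, 486, 598, 504, 515 and 399 CPM. In the double knockout the muscle list summed to 81781 and 3370 CPM, so samples 1, 3 and 4 lay below both of its values and samples 2, 5 and 6 lay between them. Fewer muscle cells and less muscle RNA per cell cannot be told apart in bulk RNA. With the 245 genes left out the first principal component fell to 31.8% of the variance. It still ran from sample 4 (-57.0) and sample 1 (-39.6) to the other 4 samples (7.25 to 31.1). Muscle genes outside the module, such as Myh3, stayed in, so this axis was not free of muscle genes.

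**Figure D2:**
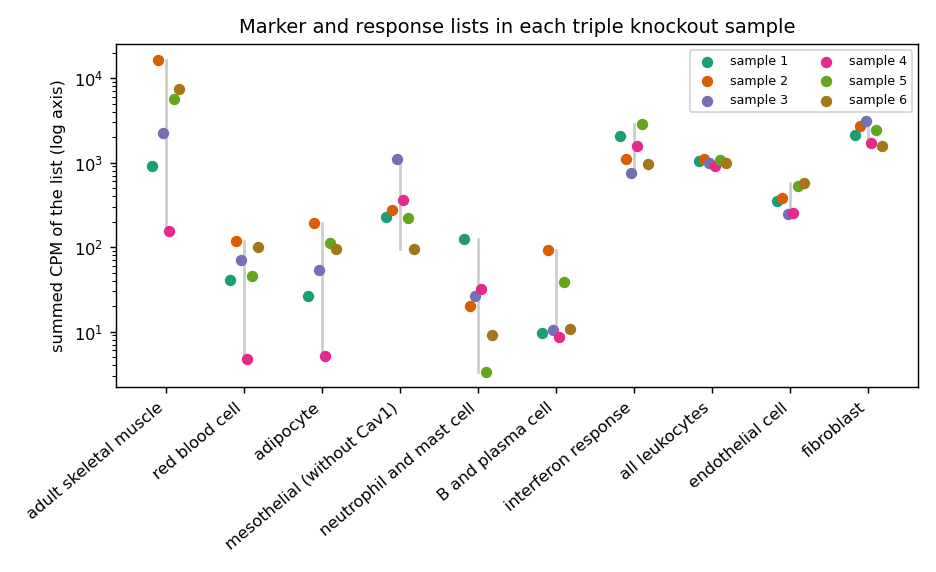
Each point is the summed CPM (log axis) of a marker or response list in 1 of the 6 triple knockout samples, and the grey line spans the samples. Muscle, red blood cell and fat cell lists are highest in sample 2 and lowest in sample 4; the leukocyte list hardly moves.

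The second module held 42 genes that were high in sample 3 and low in the other 5 samples. It included Muc16, a membrane mucin, the uroplakins Upk3b and Upk1b, the surface protein Lrrn4, the keratins Krt7, Krt14 and Krt19, and the transcription factors Wt1, Gata4 and Tbx20. Muc16, Upk3b, Lrrn4, Krt19 and Wt1 are used as markers of normal mesothelium. Upk3b was at 0.0691, 0.101, 180.0, 0.379, 0.162 and 0.0342 CPM and Muc16 at 0.0346, 0.0671, 99.6, 0.138, 0.0324 and 0.0342 CPM in samples 1 to 6. Lrrn4 was at 0.104, 0.101, 78.5, 0.310, 0.227 and 0.103 CPM and Krt19 at 0.0346, 0.537, 55.1, 0, 0.194 and 0.752 CPM. Gata4, a transcription factor of heart, gut and mesothelium, had a count in sample 3 (17.7 CPM) and sample 2 (0.0335 CPM) and was at 0 in the other 4. Every one of these was high in sample 3 alone.

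Other mesothelial genes did not follow that pattern. Msln (mesothelin), chosen after its values were seen, was at 27.7, 172, 202, 194, 79.1 and 12.9 CPM, high in samples 2, 3 and 4. Pdpn (podoplanin), the steadiest member of the mesothelial list, was at 196, 99.2, 213, 165, 137 and 80.99 CPM (SD 0.55). Without Cav1, which is treated with its neighbors below, the list summed to 226, 274, 1116, 365, 220 and 95.9 CPM, highest in sample 3 and lowest in sample 6. Col2a1, the collagen of cartilage, was at 1.31, 5.10, 129, 0.276, 0.648 and 2.49 CPM and belonged to the same module. Sample 3 was also the only triple knockout sample with substantial Xist, at 358 CPM against 0.324 to 6.49 in the others, and the summed Y-linked genes Ddx3y, Eif2s3y, Kdm5d and Uty were at 3.37 CPM against 106 to 271. Both are outside the autosomal set. A difference of sex and the other features of sample 3 cannot be told apart.

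Sample 3 was also low in genes that the other 5 samples shared, which formed a module of 17 genes with a mean deviation of -3.59 in sample 3. Wnt7b, a Wnt ligand, was at 52.96, 25.5, 1.34, 32.4, 17.6 and 28.1 CPM, and Cdh10, a cadherin, at 32.01, 5.60, 0.468, 16.5, 6.25 and 27.5 CPM. Eno1b, a retroposed enolase copy whose reads can be shared with Eno1, was at 68.1, 19.99, 1.002, 68.8, 23.6 and 87.8 CPM.

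**Figure D3:**
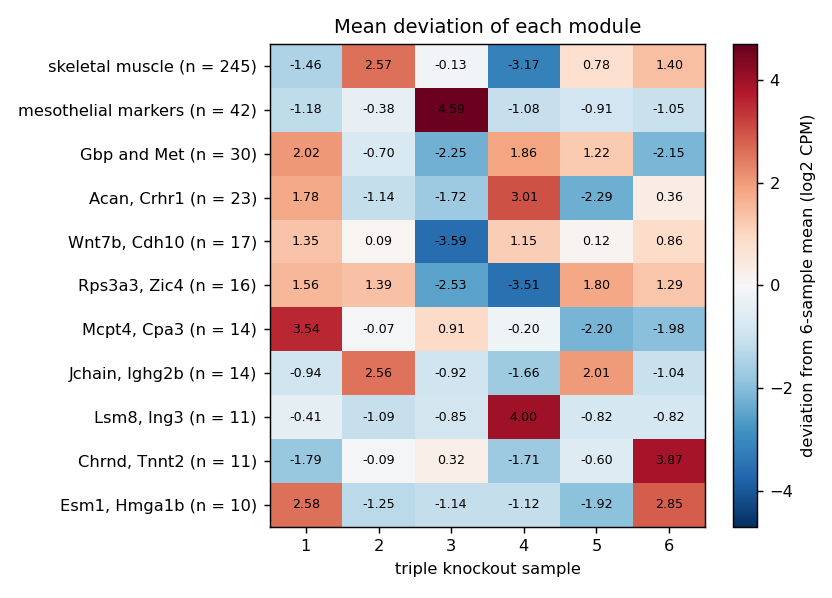
Rows are the 11 modules with their number of genes, columns are the 6 triple knockout samples, and each cell gives the mean deviation of the module's log2 CPM from its mean over the 6 samples. Skeletal muscle is highest in sample 2 (2.57) and lowest in sample 4 (-3.17). The mesothelial marker module is high in sample 3 alone (4.59), and 4 of the smaller modules rest on 1 high sample or 1 low one.

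The third module held 30 genes high in samples 1, 4 and 5. Not all of its members shared a theme, but 2 sets of genes stood out. One was interferon-inducible: the guanylate-binding proteins Gbp4, Gbp6, Gbp8, Gbp10 and Gbp11, the GTPase Tgtp1, the tryptophan enzyme Ido1 and the chemokine Cxcl11. Gbp4 was at 205, 30.7, 12.4, 164, 102 and 15 CPM and Gbp8 at 69.3, 5.20, 2.10, 35.5, 25.9 and 0.991 CPM. Tgtp1 was at 19.5, 2.41, 0.935, 20.2, 11.5 and 0.581 CPM. The list of 22 interferon response genes moved in part with them: its median deviation from the 6-sample mean was 0.57, -0.32, -0.85, 0.05, 0.97 and -0.47 on the log2 scale. Cxcl10, its most variable member, was at 173, 41.7, 24.3, 110.3, 151 and 31.7 CPM, and Irf9, a transducer of type I interferon signals and its steadiest member, at 69.03, 54.1, 51.01, 45.8, 94.2 and 54.7 CPM. The 15 antigen presentation genes had median deviations of 0.40, -0.07, -0.67, -0.01, 0.99 and -0.62. Nlrc5, the activator of MHC class I genes, was at 99.7, 31.2, 12.1, 64.2, 74.2 and 15.2 CPM and Tapbp, which loads peptides on MHC class I, at 239, 227, 179, 224, 444 and 218 CPM. Samples 3 and 6 were lowest on both lists and sample 5 highest. The T and NK cell list, of lymphocyte genes, was also highest in sample 5. It summed to 39.5, 39.8, 22.0, 28.7, 63.3 and 26.6 CPM, lowest in samples 3 and 6. Its median deviations were 0.22, 0.48, -0.53, -0.80, 0.92 and -0.24, lowest in samples 4 and 3. The part of lymphocytes in the interferon values was not tested.

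The other set in that module lay side by side on chromosome 6: Tes (a focal adhesion protein), Cav1, Met (the receptor of hepatocyte growth factor), Capza2 (an actin capping protein), St7, Wnt2 and Cftr. Met was at 5396, 656, 385, 6896, 3284 and 187 CPM in samples 1 to 6 and at 58.7 and 241 CPM in the double knockout. Tes was at 4004, 209, 105, 9234, 644 and 167 CPM, Capza2 at 4409.8, 460.0, 341, 8891, 1298 and 302 CPM and St7 at 345, 36.6, 21.9, 694, 150.4 and 23.2 CPM. Samples 1 and 4 were highest for all 4 genes and sample 5 came next, while samples 2, 3 and 6 were lower. Against the median of samples 2, 3 and 6, on the log2 scale with its prior count, Tes was 55.1-fold higher in sample 4 and 23.9-fold in sample 1. Met was 17.9-fold higher in sample 4, 14.0-fold in sample 1 and 8.53-fold in sample 5.

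The raised stretch had different edges in each sample. The block rule and the genes named from this chromosome 6 stretch, other than Cav1, Lsm8 and Ing3, were chosen after the values were seen. In sample 4 every kept protein-coding gene from Tes to Aass (chromosome 6, 17065149 to 23132986, GRCm38) was above the median of samples 2, 3 and 6. Windows of 7 neighboring kept protein-coding genes whose median lay at least 1 log2 unit above the 6-sample median spanned 25 genes there, with a median of 2.87. That span takes in flanking genes that were not raised, because a window is counted whole. Of the 25 genes 21 were above the 6-sample median, and Asb15 and Ppp1r3a, which belong to the muscle module, were among the 4 that were not. In sample 1 such windows spanned 14 genes with a median of 1.84. Lsm8 (an RNA-binding subunit) and Ing3 (a histone acetylation subunit) separate the samples. Lsm8 was at 53.96, 54.5, 32.1, 1058, 66.1 and 40.6 CPM and Ing3 at 13.4, 17.9, 16.9, 316, 17.6 and 13.7 CPM, both high in sample 4 alone. Fam3c, a secreted factor further along, was at 1008, 99.1, 117, 2241, 87.8 and 95.2 CPM, high in samples 1 and 4 again. Between Lsm8 and Fam3c, the genes Tspan12, Ing3 and Cped1 were not raised in sample 1. Wnt16, beside Fam3c, was 2.83-fold higher in sample 1, at a low level of 0.899 CPM. Sample 5 was raised from Tes to Cftr except at Cav2, and not at Fam3c. Outside that stretch genes were mixed. Tfec, the kept gene just before Tes, was 2.47-fold higher in sample 4 and 1.52-fold in sample 1. Thsd7a was 3.19-fold higher in sample 4 and 3.02-fold in sample 5, and Tmem168 (2.33-fold) and Mdfic (2.11-fold) were higher in sample 5. Wasl was at 67.9, 70.8, 76.4, 68.5, 76.03 and 67.01 CPM and Bmt2 at 42.6, 44.3, 36.1, 33.7, 30.3 and 21.8 CPM. DNA was not measured, so gene copy number was not tested.

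**Figure D4:**
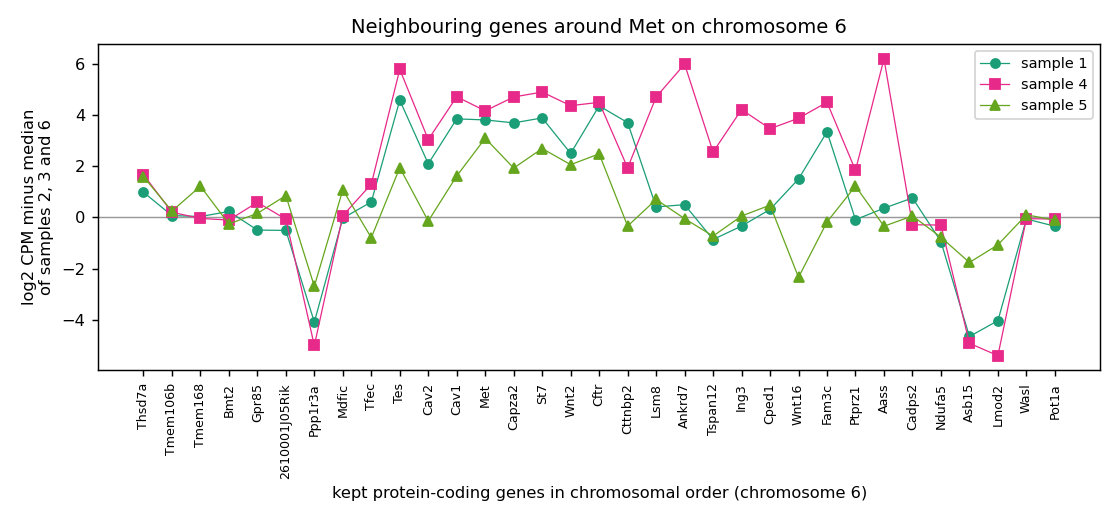
Kept protein-coding genes around Met are in chromosomal order on the x axis, and the y axis is log2 CPM in samples 1, 4 and 5 minus the median of samples 2, 3 and 6. Sample 4 is raised from Tes to Aass and less so at Tfec, just before Tes. Sample 1 is raised from Tes to Cttnbp2 and again at Wnt16 and Fam3c, and sample 5 from Tes to Cftr without Cav2. The lowest points are the muscle genes Ppp1r3a, Asb15 and Lmod2.

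Whole chromosomes differed as well, by small amounts over many genes. On chromosome 15 the median deviation over 565 kept genes was 0.18, -0.22, -0.25, 0.19, -0.003 and 0.13 on the log2 scale in samples 1 to 6. In samples 1, 4 and 6, 66.7% to 70.6% of its genes lay above their 6-sample mean, against 24.8% in sample 3 and nearly the same share in sample 2. On chromosome 13 sample 6 was higher by 0.22 over 551 genes, with 74.4% of genes above the mean, and sample 5 was lower at -0.15. Sample 5 was also higher on chromosome 5 (0.14) and chromosome 6 (0.14). The range over samples was 0.44 for chromosome 15 and 0.36 for chromosome 13. For the other 17 autosomes it was at most 0.22, the value for chromosome 6.

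GC content moved with some of these values. In sample 5 the 3505 genes with the lowest GC in their longest transcript had a median deviation of -0.27 and the 3505 with the highest 0.16. The other 5 samples lay between -0.10 and 0.13 for the low-GC genes and between -0.08 and 0.07 for the high-GC genes. After a lowess trend on GC was removed from each sample, a choice made after the data were seen, chromosome 15 was at 0.19, -0.22, -0.25, 0.21, -0.07 and 0.13. Chromosome 13 was then at 0.26 in sample 6 and -0.08 in sample 5, and chromosomes 5 and 6 in sample 5 stayed at 0.13 and 0.15. Copy number was not tested here either.

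**Figure D5:**
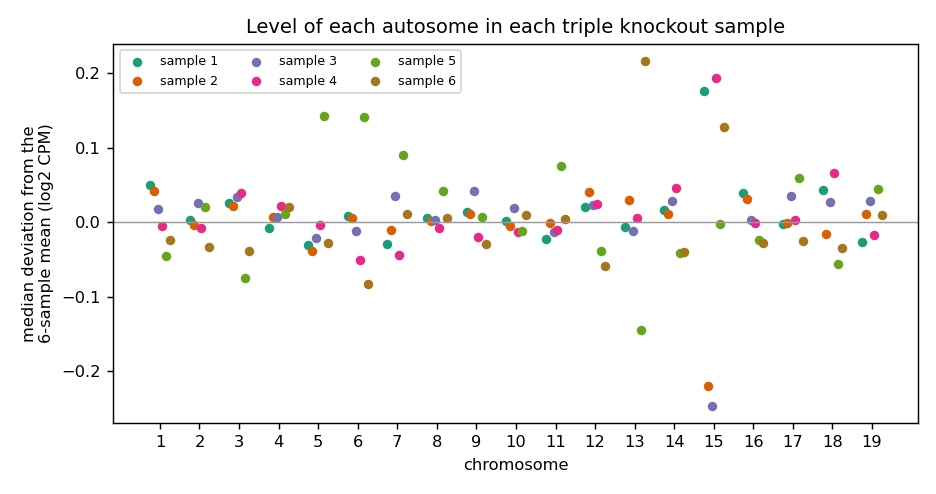
Each point is the median deviation of the kept genes of 1 autosome from their 6-sample mean (log2 CPM) in 1 triple knockout sample. Chromosome 15 separates samples 1, 4 and 6 from samples 2 and 3, and on chromosome 13 sample 6 is high and sample 5 low.

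A cluster of zinc finger genes was low in sample 5. Zfp genes encode zinc finger proteins, many of which repress transposable elements, and they lie in clusters of related copies. Over the 23 kept Zfp genes of the cluster on chromosome 17 that begins at 21008941 (GRCm38), the median deviation was 0.49, 0.41, 0.61, 0.23, -1.51 and -0.19. Of these 23 genes 21 lay below their mean in sample 5. Their median GC content was 38.5%, within the range of those low-GC genes, and after the GC trend was removed the value in sample 5 was -0.996. The 20 genes of a cluster on chromosome 13 had a median of -0.67 in sample 5. After removal of the trend sample 5 was at -0.16 and sample 4 at -0.17, so sample 5 was no longer the lowest. Over all 327 kept Zfp genes sample 5 was at -0.11. Zfp429, a member of the chromosome 13 cluster, had the largest gap of any known gene below the other samples in sample 5, at 2.59, 5.27, 5.81, 4.45, 0.162 and 6.32 CPM. Members of such clusters are similar in sequence, so reads can be shared among them.

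The Hox genes, homeobox factors that record the position of a cell along the body axis, were among the lists of higher spread. Hoxc8 was at 0.933, 0.704, 1.002, 14.1, 8.94 and 73.7 CPM, high in samples 4, 5 and 6 and near 1 CPM in the other 3 and in the double knockout (0.99 and 0.555 CPM). Hoxb3 was at 15, 13.9, 16.03, 18.4, 20.8 and 17.9 CPM (SD 0.21). Of the 19 kept Hox genes 11 had an SD above 1. Hoxc6, next to Hoxc8 and chosen after its values were seen, was at 1.56, 1.71, 1.07, 37.9, 17.5 and 67.5 CPM. Zic4, a transcription factor of the developing brain, was at 3.91, 3.79, 0.301, 0, 3.14 and 3.28 CPM, low in samples 3 and 4, and moved with Rps3a3 (224, 261, 4.88, 1.17, 267 and 160.3 CPM) and Tpm3-rs7 (138, 127, 2.47, 0.793, 173 and 81.3 CPM), copies of Rps3a and Tpm3 whose reads can be shared with their parent genes. Pax6, an eye and brain regulator, was at 0.104, 0.738, 0.0668, 0.172, 0.0324 and 18.5 CPM, high in sample 6 alone, and the RNA-binding protein gene Elavl2 at 1.07, 0.268, 0.167, 56.4, 0.130 and 1.26 CPM, high in sample 4 alone.

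Several small modules carried markers of single immune or tissue cell types. Mast cell genes were high in sample 1: the protease Mcpt4 was at 42.7, 6.41, 6.92, 5.10, 0.680 and 1.06 CPM, the carboxypeptidase Cpa3 at 44.01, 5.43, 8.42, 6.41, 0.583 and 0.718 CPM and the chymase Cma1 at 33.4, 5.70, 7.22, 5.41, 0.810 and 0.478 CPM. Samples 5 and 6 were lowest for all 3. Plasma cell genes were high in samples 2 and 5: Jchain, the joining chain of secreted antibodies, was at 4.84, 84.3, 5.41, 2.97, 28.4 and 5.37 CPM and Ighg2b at 2.59, 18.3, 0.869, 1.52, 25.9 and 1.78 CPM. Igha, an antibody heavy chain of another class, was at 14.7, 12.4, 13.2, 12.7, 99.1 and 14.3 CPM, high in sample 5 alone. The fetal RNA-binding protein gene Igf2bp1 was at 0.173, 11.4, 1.10, 0.103, 13.3 and 0.103 CPM, high in the same samples as Jchain. A module high in sample 6 held both fetal and adult muscle genes. The acetylcholine receptor subunit Chrnd was at 0.242, 2.48, 0.702, 0.103, 0.454 and 12.8 CPM, Chrne, the adult subunit, at 0.0691, 0.973, 0.334, 0.0690, 0.194 and 4.65 CPM, cardiac and embryonic troponin Tnnt2 at 0.933, 3.69, 3.64, 0.517, 3.05 and 35.4 CPM and the imprinted growth factor Igf2 at 17.2, 17.6, 136, 39.3, 80.1 and 1324 CPM. The embryonic muscle precursor list as a whole was high in sample 2 as well, at 19.2, 136, 21.4, 5.69, 66.3 and 162 CPM summed, and its member Myh8, an embryonic and perinatal myosin, was highest in sample 2, at 4.01, 71.9, 7.02, 1.17, 32.2 and 52.6 CPM. Igf2 was higher still in both double knockout samples, at 4016 and 1887 CPM (edgeR, adjusted p = 0.159 for the triple minus double difference).

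Pigment, secreted and stress genes also set samples apart. Crhr1, a stress hormone receptor, was at 31.8, 0.268, 1.57, 67.9, 0.551 and 11.7 CPM, high in samples 4 and 1, then 6. The pigment enzymes Tyrp1 and Dct were high in the same 3 samples, Tyrp1 at 1.94, 0, 0, 8.35, 0 and 5.50 CPM and Dct at 3.94, 0, 0.0334, 8.14, 0.0324 and 4.20 CPM. Esm1, a secreted proteoglycan, was at 46.3, 8.79, 4.34, 0.931, 1.36 and 168 CPM, and Hmga1b, a retroposed copy of the chromatin gene Hmga1, at 51.4, 0.335, 1.44, 1.24, 0.745 and 29.8 CPM, both high in samples 1 and 6. Krt8, a keratin of simple epithelia, was at 33.4, 89.1, 25.3, 186, 13.8 and 1.26 CPM, high in sample 4 and nearly absent in sample 6, and the matrix protease Mmp10 was at 126, 4.80, 4.81, 28.5, 40.5 and 54.5 CPM, highest in sample 1. The small leucine-rich proteoglycan Lum was at 307, 355, 431, 28.7, 72.2 and 65.1 CPM, with samples 1, 2 and 3 above 4, 5 and 6. Cdkn1a, the p53 target that encodes p21, was at 285, 54.8, 120.5, 188, 48.1 and 154 CPM, highest in samples 1 and 4.

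The descriptions of the 6 samples carry a code, SN930 for samples 4, 5 and 6 and SN933, SN934 and SN935 for samples 1, 2 and 3. In the double knockout the first sample also carries SN930 and the second carries SN931. The meaning of the code is not explained. No gene of 16563 tested differed between SN930 and the other codes by edgeR, 0% at an adjusted p under 0.05, and 961 had an unadjusted p under 0.05. limma-voom called 0 genes and DESeq2 called 76. Hoxc8 and Lum, whose values are given above, were not called either (edgeR, adjusted p = 0.802 for both). On the first principal component samples 1 and 4, which carry different codes, lay at the same end.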

How the data were processed

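RNA was sequenced from 8 mouse malignant mesothelioma samples, 6 triple and 2 double knockout, as mRNA-enriched NEBNext Ultra II libraries per the labels. The deposited values are raw read counts per gene, 52636 genes in each table. Per the submitters' processing notes HTSeq and DESeq2 were used with mm10 (GRCm38); no aligner or strand setting is named in the labels, so overlapping antisense genes cannot be told apart. Gene starts in the tables count from 0, and 49993 genes matched GENCODE M21 coordinates once 1 was added.

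Counts were scaled with TMM (edgeR 4.0.16, R 4.3.3), and log2 CPM used a prior count of 2. Autosomal genes with a mean of at least 1 CPM over the 6 samples were kept. Spread beyond counting error was tested with edgeR's Poisson likelihood ratio test; description codes and genotypes were compared with edgeR's quasi-likelihood test, p-values adjusted by Benjamini-Hochberg over all genes tested. DESeq2 1.42.0 and limma-voom (limma 3.58.1) were alternatives, as were other scalings, prior counts, filters and the removal of each sample. The tests were tried on simulated counts of 14030 genes. With 3 samples against 3, edgeR recovered 61.5% of genes changed 4-fold and 95.5% of genes changed 16-fold, with 4.65% and 9.05% false among the calls. The changed genes were drawn from well-counted genes only, and genes were simulated independently of each other. These rates therefore do not describe genes of low counts or genes that vary together, as many did here. Modules were cut at height 0.3 of an average-linkage tree on 1 minus Pearson r. Promoter windows came from RefSeq (GRCm38.p6), and 9529 of 14030 kept genes matched one.

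Genes were named by rule: the 12 most abundant, the 15 most variable and 10 steadiest with known symbols, 4 of each module, those farthest above or below the other samples, the most and least variable of each list, and the 3 targeted genes. Others are said to be chosen after their values were seen. Some items that the rule names are not reported here. The members and lists were chosen with earlier results of these data known.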

Additional observations from a re-analysis of the deposited data

Results flagged for a closer look

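Each quantity over the 6 triple knockout samples was examined for 1 sample that stood apart, by the gap between that sample and its nearest neighbor as a share of the whole range. The share passed the 95% critical value of Dixon's test for 6 samples in 23 of 149 quantities. Chance passes it for about 1 in 20 groups, but many of these genes were chosen for their spread over these samples, and modules were built from such genes, so the count of passes cannot be set against that share. Genes of 1 module and summaries of the same libraries are not independent of each other either.

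Sample 3 was the high one for the genes listed next, all members of the mesothelial module. Other genes of these kinds differed: the keratin Krt8 was highest in sample 4, and Msln was high in samples 2, 3 and 4. The share was 0.802 for Upk3b, 0.896 for Muc16, 0.868 for Lrrn4, 0.628 for Krt19, 0.778 for Krt14, 0.82 for Pkhd1l1 and 0.928 for Gata4. It was 0.862 for the module that holds them and 0.779 for the mesothelial list. Sample 3 was also high for Xist (0.983) and low for total counts (0.637), for the Wnt7b and Cdh10 module (0.745) and for the steady genes Mfap3 (0.699) and Zc3h13 (0.681). For these last 2 genes the whole range over samples is small, so the share flags a small difference.

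Sample 4 was low for Nf2 (0.727) and the red blood cell list (0.667), and high for the Lsm8 and Ing3 module (0.867) and the proteasome subunits (0.626). The median deviation of the 24 proteasome subunits was 0.27 in sample 4 and from -0.12 to 0.02 in the others. Sample 6 was high for the Chrnd and Tnnt2 module (0.628).

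Sample 5 was high for chromosome 5 (0.807), chromosome 8 (0.713) and chromosome 11 (0.719), and for the 8 Zfp genes of a cluster on chromosome 6 that begins at 47835661 (0.709). After removal of the GC trend sample 5 was at 0.13 on chromosome 5, -0.02 on chromosome 8 and 0.01 on chromosome 11. The Zfp cluster on chromosome 6 went from 0.28 to 0.15.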

How the results depend on the processing

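No paired analysis was possible because the replicate numbers are only the order of the records and pair no samples. The median SD was 0.254 with a minimum mean of 10 CPM, which put 4.81% of genes over an SD of 1, and 0.389 over 28582 genes without a filter. The most variable genes depended on the measure: of the 100, 48 remained with the minimum of 10 CPM, 60 with DESeq2's variance-stabilised values and 23 after the trend of variance with level was removed. Of the 100 steadiest, 45 remained with library totals alone and 62 after that trend was removed. DESeq2 called 76 genes between description codes and 3380 between genotypes. The first component held 55.9% of the variance over the 500 most variable genes and 31.8% without the muscle module, an alternative added after the data were seen. With 1000 genes clustered there were 25 modules. The genes kept together in 1 module, at a tree height of 0.2, with Spearman correlation and with complete linkage, were 216, 205 and 96 of 245 for muscle, 26, 7 and 14 of 42 for the mesothelial module, and 22, 22 and 17 of 30 for Gbp and Met. The mast cell, Lsm8, Chrnd and Esm1 modules were not found at height 0.2. With complete linkage the only smaller module found was that of Rps3a3 (13 of 16).

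Leaving out 1 sample at a time gave 13977 to 14065 kept genes, a median SD of 0.280 (without sample 5) to 0.310, and 8.83% to 9.78% of genes over an SD of 1. Of the 100 most variable genes 61 (without sample 4) to 88 remained, and of the 100 steadiest 46 to 61. Poisson calls ran from 13755 to 13894 and code calls stayed at 0. Genotype calls ran from 315 without the first double knockout sample to 5579 without the second, where the lone double knockout sample is assumed to vary like the triple knockout group. The first component held 32.9% (without sample 4) to 52.5% (without sample 3). Sample 5 on chromosome 8 went from 0.04 to -0.02 after removal of the GC trend. Depth limits steady genes of moderate level such as Gosr1, whose spread is near counting error.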

Other observations

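Vessel and wall genes differed between samples. The list of 10 endothelial genes summed to 350.3, 384, 248, 255, 526 and 581 CPM in samples 1 to 6, highest in samples 5 and 6. The smooth muscle and pericyte list summed to 1167, 1634, 805, 477, 872 and 1913 CPM, highest in sample 6 and lowest in sample 4. Cytosolic ribosomal protein genes had median deviations of -0.27, -0.22, 0.26, 0.10, -0.004 and 0.13 on the log2 scale, lowest in samples 1 and 2. Genes of cholesterol synthesis were highest in sample 4 (0.48) and lowest in sample 2 (-0.31), and ATF4 and unfolded protein response genes were highest in sample 1 (0.55) and lowest in sample 4 (-0.31). The p53 target list was highest in samples 4 (0.49) and 1 (0.26) and lowest in sample 5 (-0.44).

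Other lists held few counted genes. No hepatocyte gene passed the level filter, with 0.227 to 3.17 CPM summed over 6 genes. Of the 7 lung epithelial genes Nkx2-1 and Sftpa1 had no count in any of the 6 samples, and 1, Ager, passed the filter, at 2.45, 1.98, 1.90, 6.45, 2.62 and 4.37 CPM.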
